A study of Mus musculus and Homo sapiens with 22 samples.

Results

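The histone genes described here are the mouse genes that encode the linker histones H1 and the core histones H2A, H2B, H3 and H4. They were taken as RefSeq protein-coding genes (assembly GRCm38.p6, the assembly behind mm10) whose symbols start with H1f, H2ac, H2bc, H2az, H3c, H3f, H4c, H4f or Hist1h to Hist4h, and this rule found 74 of 21900 protein-coding genes. Their Lin28A sites came from irCLIP, in which RNA is crosslinked to protein by ultraviolet light, immunoprecipitated and sequenced. The antibody was anti-Lin28A, and the cells were mouse embryonic stem cells of the V6.5 line, grown with LIF, either Mettl3 wild type (WT) or Mettl3 knockout (KO). Each genotype had 1 site list, with 10990 sites in WT and 11285 in KO. With 1 sample per genotype there was no replicate check, no test between genotypes was possible, and each interval below covers counting error only. No source used here says whether the KO cells were 1 clone. The anti-GFP control samples of the series were not analysed here. Read depth is unknown, and the lists contain only sites past the authors' threshold. All 9 genes in a list of mES cell markers (such as Sox2, with 7 WT and 11 KO sites, and Pou5f1, with 6 and 7) had a site in at least 1 list, as did 21.6% of all protein-coding genes. Site lists do not measure RNA level.

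Histones package DNA into nucleosomes: pairs of H2A, H2B, H3 and H4 form the core, and H1 binds the linker DNA. Replication-dependent histone genes lie in clusters, are short and lack introns, are transcribed mainly in S phase, and give mRNAs that usually end in a conserved stem-loop, bound by Slbp, in place of a poly(A) tail. Replacement histones (such as H2A.Z, H3.3 and some H1 variants) are made from solitary genes throughout the cell cycle, mostly as polyadenylated mRNAs. Lin28A is an RNA-binding protein of pluripotent cells that blocks let-7 maturation and binds many mRNAs, through a zinc knuckle domain that prefers GGAG and a cold shock domain that prefers GAU. Mettl3 places the N6-methyladenosine mark on mRNA.

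Most histone genes carried a Lin28A site in both genotypes. At least 1 site overlapped 49 of the 74 genes in WT (66.2%) and 53 in KO (71.6%). Over all protein-coding genes the share was 18.2% in WT and 18.9% in KO. Histone genes are short, with a median of 502 nt between their bounds against 17146 nt for all protein-coding genes. Among the 1585 protein-coding genes with bounds of up to 1000 nt, the share with a site was 3.34% in WT and 3.60% in KO. Of the 53 such short genes with a WT site, 43 were histone genes, and of the 57 with a KO site, 44 were. The other 1525 short genes held 14 WT and 18 KO sites in all, against 86 and 86 on the 60 short histone genes. Short genes differ in RNA level, and the part of RNA level in these shares was not tested. Near-identical histone genes can share reads, so a site counted for 1 gene may come from another, which was not tested either.

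**Figure D1:**
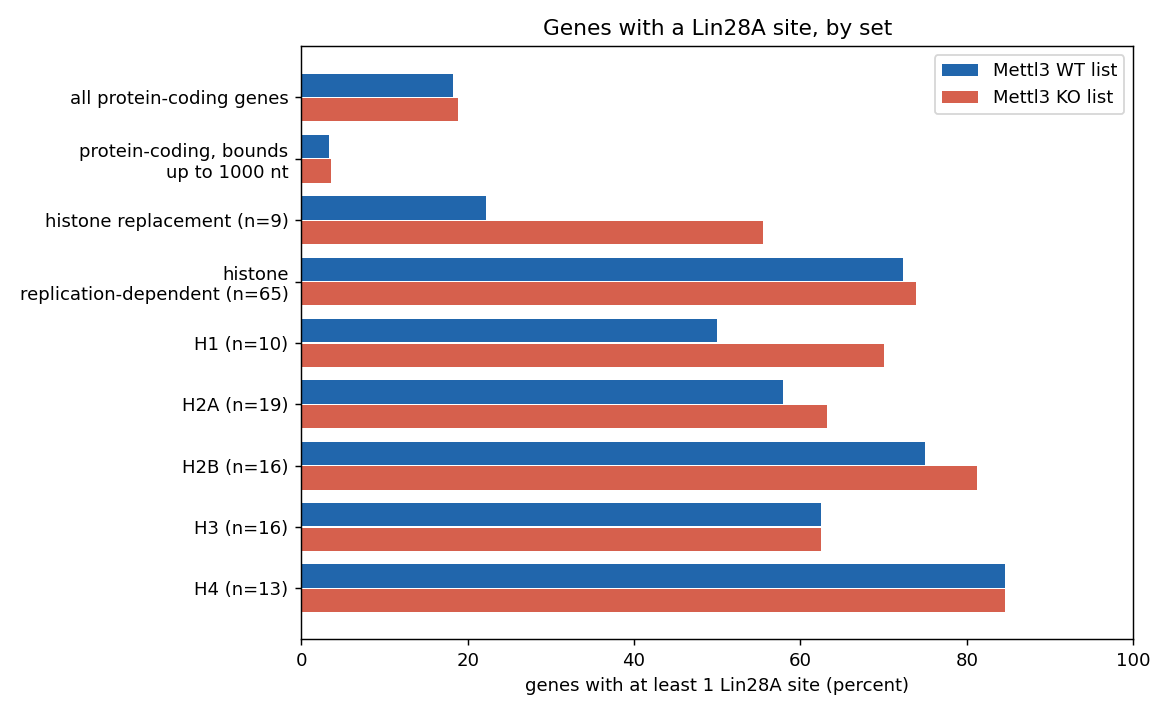
Percent of genes with at least 1 Lin28A site (x axis) in the Mettl3 WT list (blue) and KO list (red), for all protein-coding genes, those with bounds of up to 1000 nt, and histone genes by type and class. Replication-dependent histone genes lay at 72.3% and 73.8%, against 18.2% and 18.9% for all protein-coding genes.

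The share with a site differed by type and class. Of the 65 replication-dependent genes, 47 had a WT site and 48 a KO site. Of the 9 replacement genes, 2 had a WT site and 5 a KO site. By class, either list held a site for 7 of 10 H1 genes, 12 of 19 H2A, 14 of 16 H2B, 10 of 16 H3 and 11 of 13 H4, beside 21.6% of all protein-coding genes. A site was in both lists for 48 histone genes, in WT only for 1 and in KO only for 5, beside 15.5%, 2.65% and 3.42% of all protein-coding genes. Of the 60 histone genes with bounds of up to 1000 nt, 45 had a site in either list, 42 in both, 1 in WT only and 2 in KO only. Over all 1585 genes of that length the shares were 3.72%, 3.22%, 0.126% and 0.379%.

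**Figure D2:**
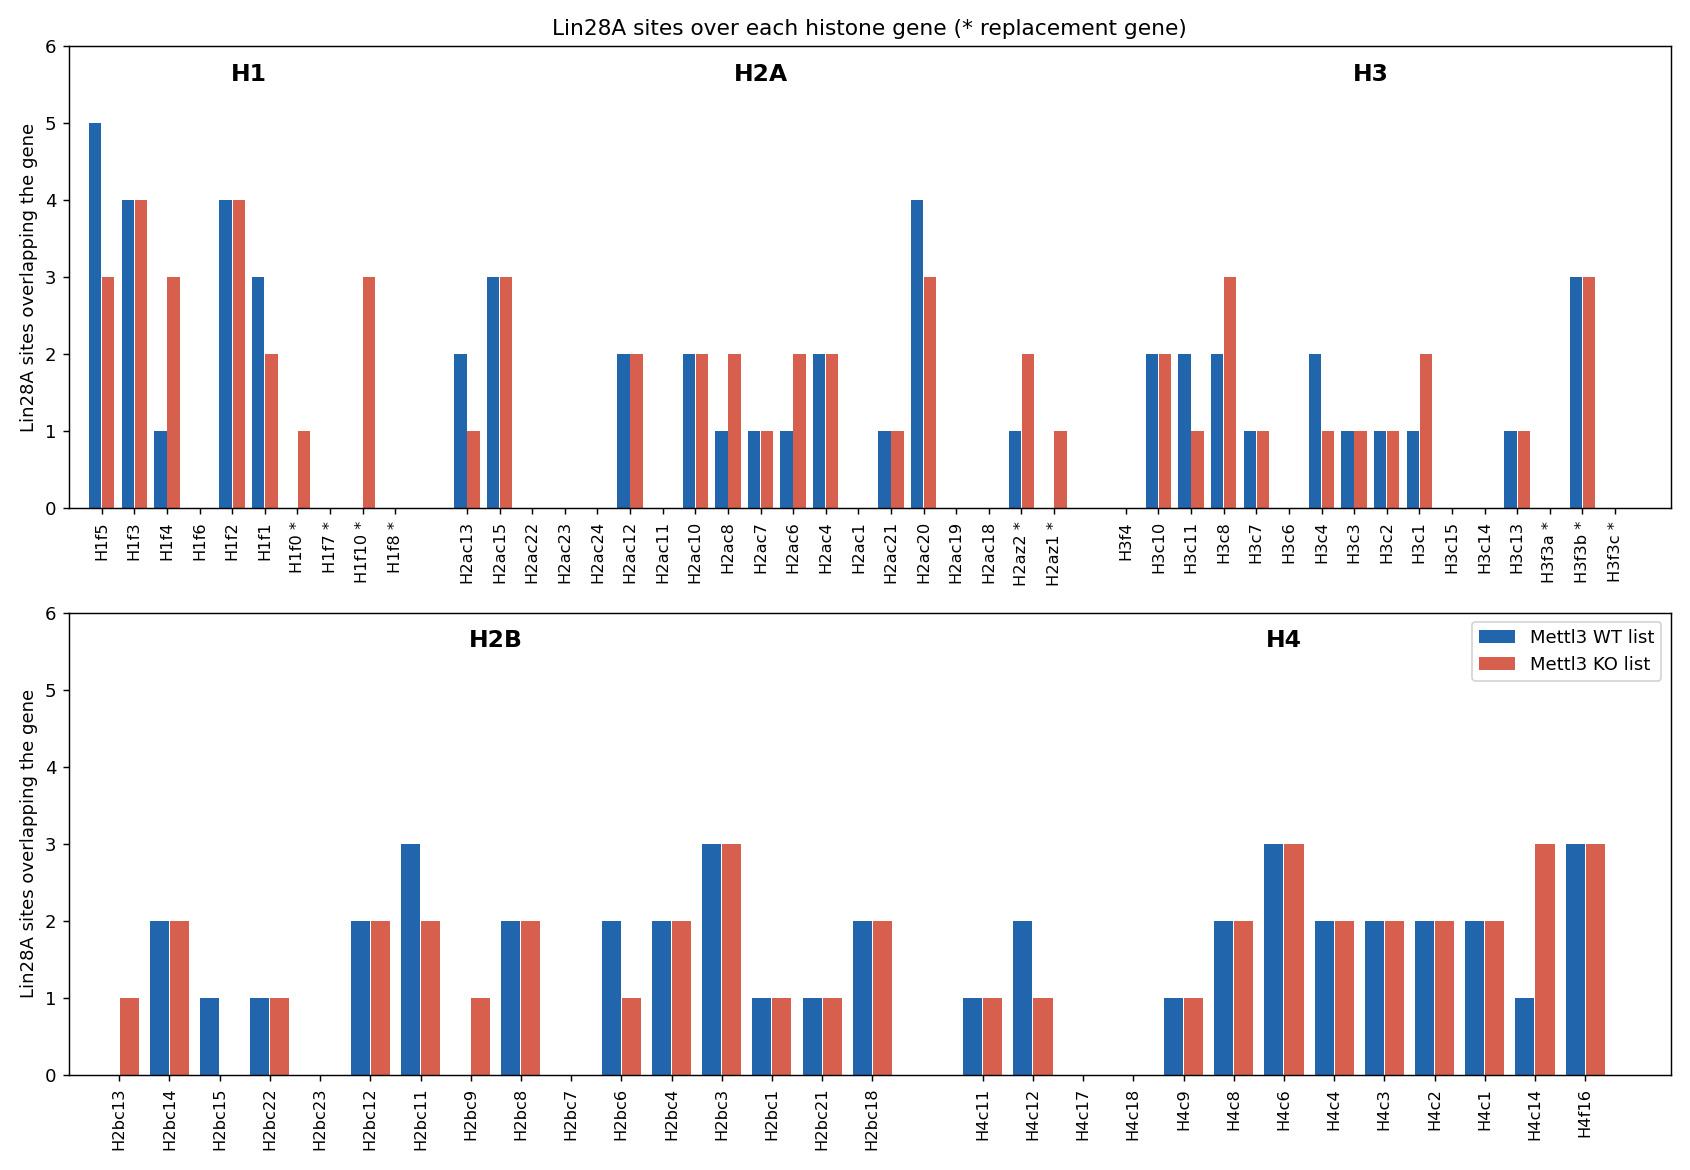
Number of Lin28A sites overlapping each of the 74 histone genes (y axis) in the WT list (blue) and KO list (red), by class, with replacement genes marked by an asterisk. H1f5 had the most WT sites (5), and 20 genes had none in either list.

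Sites lay densely along the histone genes. The lists held 96 WT and 101 KO sites over histone genes, 37 and 41 of them wider than the basic step of 50 nt. Only 61.5% and 59.4% of histone gene sites were 50 nt wide, where 86.0% and 85.5% of all sites were. At least 50% of the bounds was covered in 6 protein-coding genes in WT, of which 5 were histone genes of the rule, H2bc18, H1f1, H1f5, H1f3 and H2bc3, and the other one was H2ax, a histone variant gene outside the rule. In KO the 7 genes at or above 50% were all histone genes: H1f1, H2bc18, H4c14, H1f3, H4c6, H1f2 and H1f5. Bounds of most protein-coding genes include introns and those of replication-dependent histone genes usually do not, so this ranking favours short genes without introns.

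Leaving H2B aside, the linker histone genes of the clusters had the highest covered share of their bounds among the classes. Sites covered 41.3% of the bounds of the 6 replication-dependent H1 genes in WT and 46.7% in KO. The corresponding values were 25.2% and 29.3% for H4, 12.4% and 13.2% for H3, and 12.1% and 12.3% for H2A. H2B gave 2.16% and 2.20%, because its 16 genes include 5 with bounds longer than 1000 nt (H2bc21, H2bc22, H2bc23, H2bc4 and H2bc6), up to 37455 nt for H2bc6. A value for the short H2B genes alone was not computed, so this one does not place H2B below the other classes. H1f1 encodes a somatic H1 subtype: its bounds (745 nt) were 78.3% covered in WT by 3 sites and 91.7% covered in KO by 2 sites, 1 of which spanned 600 nt. H1f3 had 4 sites in each list, with scores from 19.7 to 68 in WT and from 15 to 45 in KO. H1f2 likewise had 4 and 4, and all 4 WT sites overlapped a KO site. H1f5 had 5 WT and 3 KO sites, and 2 of its WT sites, with scores of 14 and 13, overlapped no KO site. H1f4 had 1 and 3. The testis gene H1f6, inside the cluster of H1f1, H1f2, H1f3 and H1f4, had no site. H1f5 lies in another cluster of chromosome 13.

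Letters of the first transcribed bases are shown for the 4 members with the most sites (H1f5, H1f3 and H1f2 with 8 over both lists, H2ac20 with 7) and for 1 member without a site in each of their classes (H1f8, an oocyte linker histone, and H2ac19). Each run is bases 21 to 50 of the gene counted from its RefSeq start, read 5′ to 3′ on the transcribed strand as DNA (RefSeq, GRCm38.p6), and capitals mark bases under a WT site.
H1f5 (chr13:21780576-21780605, minus strand): cgttagatttcttttagttttctcgcaact
H1f3 (chr13:23555052-23555081, plus strand): TTGTGCTTACTTTTTGCTTTACTAGTAAAG
H1f2 (chr13:23738827-23738856, plus strand): tcctgacttccagagactcatcatGTCTGA
H2ac20 (chr3:96220831-96220860, minus strand): CATTATACTCTAAGTTATGTCTGGCCGTGG
H1f8 (chr6:115944951-115944980, plus strand): gagcactggcctggcctgctgctgcctgtg
H2ac19 (chr3:96240325-96240354, minus strand): agagcgtcgggcggacaatcgggtctgcgt
In WT, H1f3 and H2ac20 were covered over the whole run and H1f2 over its last 6 bases. In KO, a site covered the whole run in each of these genes. None of the 6 runs held GGAG. A RefSeq start with sequence was given for 69 of the 74 members. GGAG stood on the transcribed strand in the first 50 bases of 10 of these 69 (14.5%), against 34.5% of 32851 starts in the table, and its reverse complement CTCC in 17.4% against 27.4%. Of the 24 members with a site on their strand in those bases, 2 (8.33%) held GGAG, and of the other 45, 8 (17.8%) did. GAT, searched in the same way, stood in 11.6% of members against 36.0% of all starts (its reverse complement ATC in 43.5% against 34.0%), and both are short motifs whose frequency follows base composition. Bases past the first 50 were not searched.

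Of the promoter motifs searched upstream of the starts, CCAAT stood in most members and TATAAA in fewer. CCAAT stood in the 250 bases before the start on the transcribed strand in 69.6% of members against 19.1% of all starts, and its reverse complement ATTGG in 58.0% against 19.7%. TATAAA stood there in 34.8% against 7.59%, and its reverse complement TTTATA in 11.6% against 6.26%.

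Over all replication-dependent genes, coverage by sites was higher at the ends of the gene than in its middle, but not in every class. The 57 such genes with bounds of up to 1000 nt and a known strand were read from start to end, and 40 had a WT and 41 a KO site on their strand. The last 100 nt, the part that usually holds the stem-loop, was touched in 33 of 40 genes in WT and 35 of 41 in KO. The first 100 nt was touched in 26 and 25, both ends in 24 and 22, and neither end in 5 and 3. The longer stretch between these end windows was touched in 27 and 28. The bounds were also cut into 10 equal bins, and the percent of genes covered was averaged over each bin. The bin at 90 to 100% of the bounds gave 51.5% in WT and 59.3% in KO, the bin at 0 to 10% gave 41.5% and 35.6%, and the bin at 40 to 50% gave 15.5% and 17.6%. A site is placed only to its 50-nt step, which is close to the width of 1 bin.

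**Figure D3:**
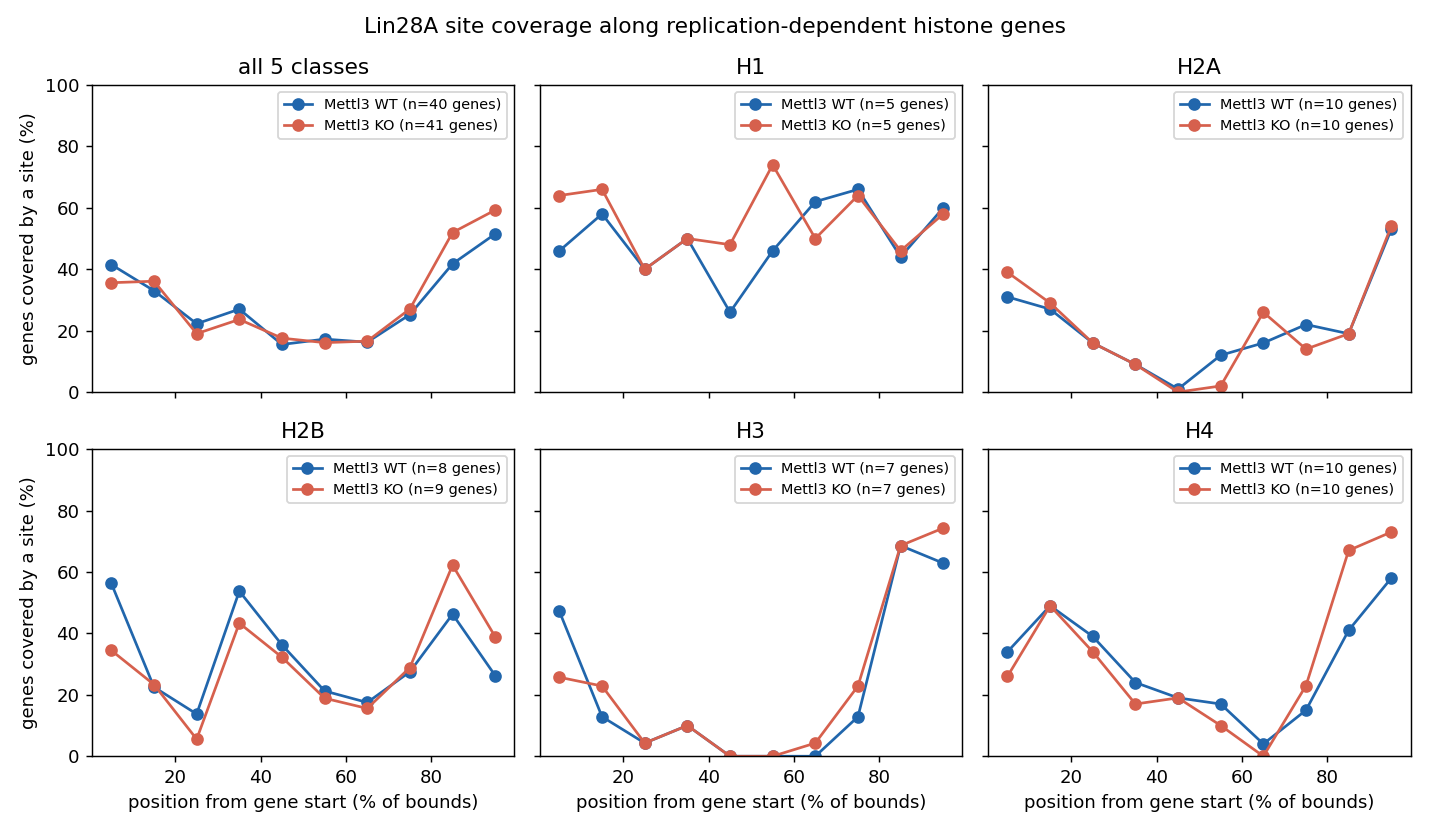
Percent of genes with a site on their strand that are covered in each of 10 bins of their bounds (y axis) against position from the start (x axis, percent of bounds), for replication-dependent genes with bounds of up to 1000 nt, in WT (blue) and KO (red), together and by class. In H3 genes the bin at 90 to 100% was at 62.9% (WT) and 74.3% (KO) and those from 40 to 60% at 0%.

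The profile differed in form between classes. In the 7 H3 genes the bin at 80 to 90% was covered at 68.6% in each list, and none of these genes had a site from 40 to 60%. H3c7 was left out because its strand is unknown. It had a site in each list at 23544451 to 23544500, near the middle of its bounds (23544052 to 23544954). In the 10 H4 genes coverage was 58% (WT) and 73% (KO) at 90 to 100%, 49% in both lists at 10 to 20%, and 4% and 0% at 60 to 70%. H2B genes had a further peak at 30 to 40%, with 53.8% (8 genes) in WT and 43.3% (9 genes) in KO, and reached 46.2% and 62.2% at 80 to 90%. At 90 to 100% they were at 26.2% and 38.9%, below the bin at 30 to 40% in both lists. At 0 to 10% they were at 56.25% in WT, the highest WT bin of the class, and 34.4% in KO. In the 10 H2A genes coverage was 53% and 54% at 90 to 100%, and 1% and 0% at 40 to 50%. In the 5 H1 genes every bin of both lists was covered at 26% or more, and the highest bin was not at an end. It was 70 to 80% in WT (66%) and 50 to 60% in KO (74%), where the bin at 90 to 100% gave 60% and 58%. These counts of 5 to 10 genes per class are small, and genes of a class share sequence.

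The histone gene site with the highest score lay on the same H2B gene in both lists. The score is the authors' own value, and its product with the number of 50-nt steps was whole, within 0.01, for 99.97% of sites in each list. The median score of histone gene sites was 25.25 in WT, where the whole list had 20.0, and 25 in KO, where it had 19. At or above the list's median were 66.7% and 69.3% of histone gene sites, against 52.9% and 50.6% of all sites. H2bc14, which encodes a core H2B, held the top histone gene site of each list, with a score of 128 in WT (percentile 96.4 of the list) and 138 in KO (97). A site of H2ac7 followed in WT with 100.0, and the same site scored 68 in KO. H2bc3 had a WT site of 90.0, which scored 55 in KO. In KO the H4 genes H4c4 and H4c2 each reached 77 and H3c1 75. H2bc18 (chr3:96269700-96270192) had a 350-nt site in each list, with a mean score per step of 75.1 in WT and 89.4 in KO. By class the median score of H2B sites was 39 and 35.5, of H4 sites 33 and 32.3, of H2A sites 22 and 21.75, of H3 sites 18 and 20.25, and of H1 sites 19.7 and 19.

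Of the core H2A genes, H2ac20 had 4 WT and 3 KO sites and H2ac15 3 and 3. H2ac12, H2ac10 and H2ac4 had 2 and 2, H2ac13 2 and 1, H2ac8 and H2ac6 1 and 2, and H2ac21 and H2ac7 1 and 1. Of the H2B genes, H2bc3 had 3 and 3 and H2bc11 3 and 2. H2bc14, H2bc12, H2bc8, H2bc18 and H2bc4 had 2 and 2, H2bc6 2 and 1, and H2bc21 1 and 1. H2bc1, a testis H2B gene, also had 1 and 1, and there the site overlapped a further gene, Gm33516. H2bc13 and H2bc9 had a KO site only (scores of 20.0 and 16) and H2bc15 a WT site only (13). Of the H3 genes, H3c8 had 2 and 3, H3c10 2 and 2, H3c11 and H3c4 2 and 1, H3c1 1 and 2, and H3c7, H3c3, H3c2 and H3c13 1 and 1. Of the H4 genes, H4c6 and the solitary H4f16 had 3 and 3. H4c8, H4c4, H4c3, H4c2 and H4c1 had 2 and 2, H4c12 2 and 1, H4c14 1 and 3, and H4c11 and H4c9 1 and 1.

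Where the strand of the gene was known, the sites followed it. Of the sites over members with a known strand, 89 in WT and 91 in KO lay on the strand of the gene, and 1 in each list lay on the other. That site was in the 14079-nt bounds of H2bc22, on the minus strand (WT score 44, KO score 36), so no site on its own strand was found for H2bc22. The strand was not known for 5 members, which held 6 WT and 9 KO sites. Among members of known strand, 9 neighbouring pairs of H2A and H2B genes were transcribed away from each other, with 163 to 280 nt between them. Both genes had a site in 4 pairs, 1 gene in 4 and neither in 1. The pairs with 1 gene include H2ac22 and H2bc22, through the minus-strand site above. H2ac6 with H2bc4 and H2ac20 with H2bc21 were left out, because the strand of these H2B genes was unknown. Each of these genes had sites in both lists.

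The clusters differed in how many members held sites, beside 21.6% of all protein-coding genes with a site in either list. Members no more than 100 kb apart were taken as 1 block, which gave 5 blocks with 63 members, and 11 members stood alone. In the largest block, on chromosome 13 (23531044 to 23764412), 26 of 29 members had a site, with 49 WT and 53 KO sites. In the block at 21715711 to 21833475 of chromosome 13, 11 of 17 had one (21 and 16 sites). At 22035122 to 22043658 it was 4 of 5 (8 and 7 sites), and at 23933725 to 23934913, which holds the testis genes H2bc1 and H2ac1, 1 of 2. In the block of chromosome 3 (96219885 to 96270192) 6 of 10 members had a site (10 and 11 sites), and of the 11 solitary members 6 did (7 and 13 sites). All members without a site in the chromosome 3 block belong to the pairs with shared starts described below. So do H4c17, H4c18, H2ac23 and H2ac24 of the block at 21715711, where H2ac22 and H2bc23 also had none. The part of these pairs in the block counts was not tested. WT sites of the largest block overlapped a KO site in 95.9% of cases (95% interval 86 to 99.5, Clopper-Pearson), and those of the block at 21715711 in 66.7% (43 to 85.4). In the other direction, 84.9% of KO sites of the largest block overlapped a WT site (72.4 to 93.3), and 87.5% of those of the block at 21715711 did (61.7 to 98.4). The chromosome 3 block gave 80% (WT) and 72.7% (KO), and the block at 22035122 gave 87.5% and 100%. Over all sites of the lists the shares were 75.1% and 72.9%.

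**Figure D4:**
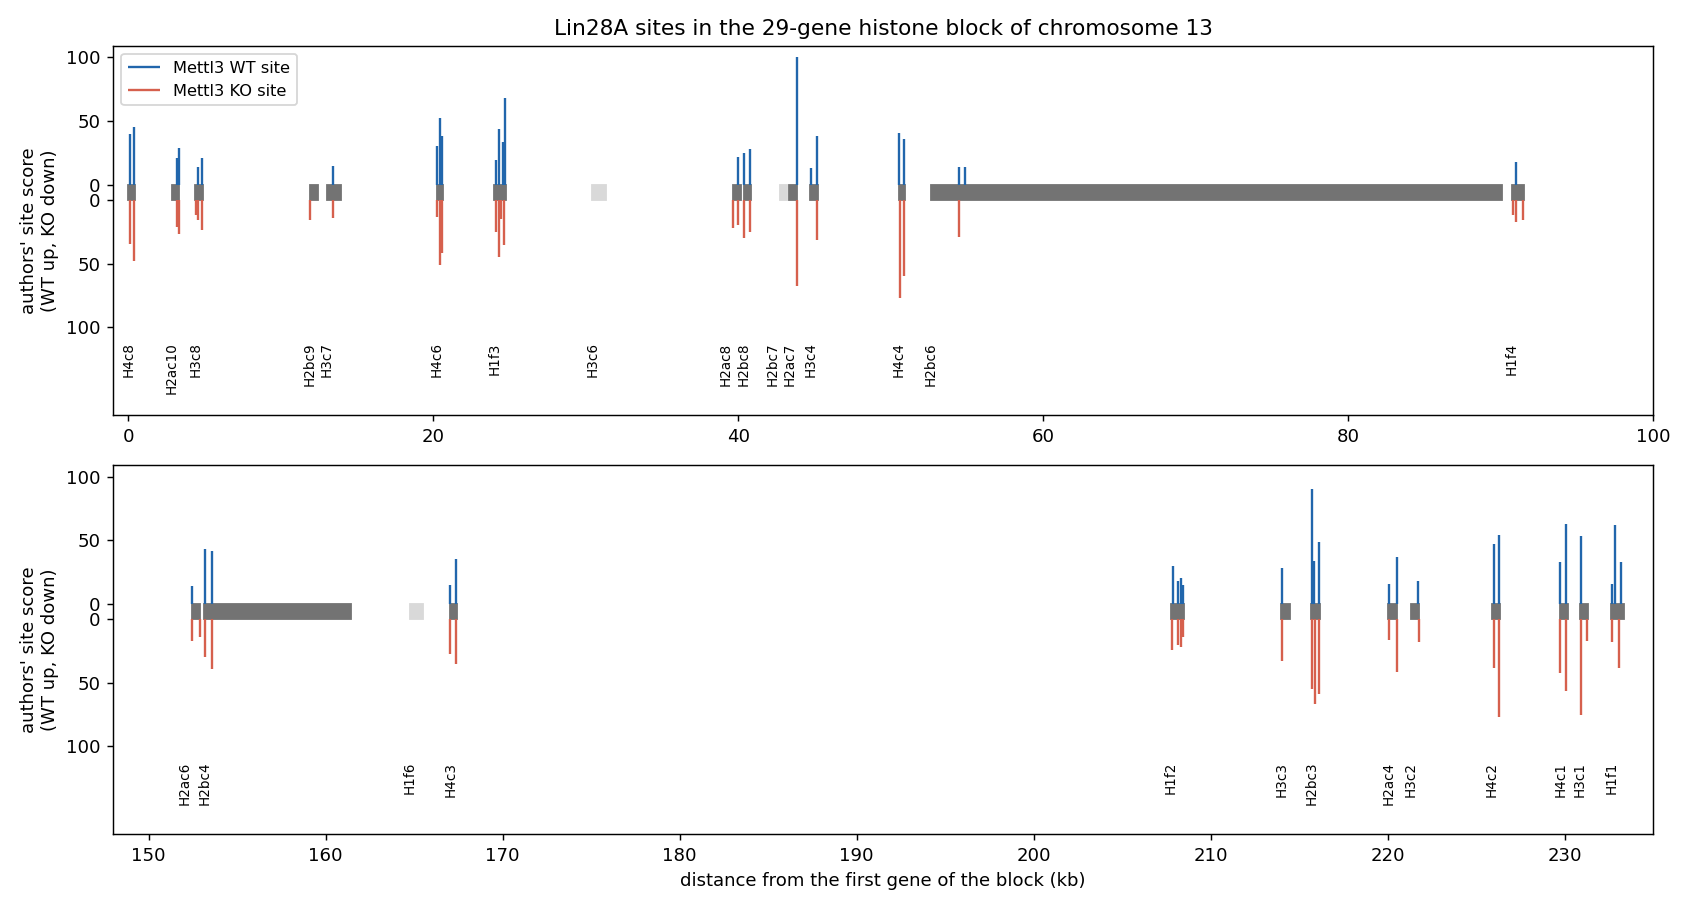
Lin28A sites in the block of 29 histone genes on chromosome 13, by distance from its first gene (x axis, kb, drawn in 2 panels), with the authors' score of each site (y axis) upward for WT and downward for KO. Dark boxes are genes with a site and pale boxes the 3 genes without one (H3c6, H2bc7 and H1f6).

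The 20 members without a site in either list are grouped here by type and by shared start sequence, a grouping made after their values were seen. A group of 8 was made of 4 pairs whose starts share a long identical stretch: H4c17 and H4c18 (285 of 300 bases in a run), H3c14 and H3c15 (231), H2ac18 and H2ac19 (219), and H2ac23 and H2ac24 (200). The next longest run between members of a class was 72 bases, between H4c11 and H4c12, which both had sites. The 60 bases before the start are shown for H4c17 and H4c18, 5′ to 3′ on the transcribed strand (RefSeq, GRCm38.p6), with capitals for bases inside the shared run.
H4c17 (chr13:21811686-21811745, plus strand): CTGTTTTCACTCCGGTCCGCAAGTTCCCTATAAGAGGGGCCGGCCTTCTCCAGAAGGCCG
H4c18 (chr13:21832198-21832257, minus strand): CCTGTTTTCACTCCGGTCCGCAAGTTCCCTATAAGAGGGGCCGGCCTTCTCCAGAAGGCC
All 60 bases of both lay in the run, offset by 1. How the authors treated reads that match several places was not stated in the labels, and the part of these copies in the missing sites was not tested. Sites listed for other members may likewise come from a similar copy. Sequence of the transcribed bodies was not used here, so copies that agree only there were not counted. Of the other 12 members without a site, 3 were replication-dependent testis genes (H1f6, H2ac1 and H3f4). Another 4 were of the replacement type (H1f7, H1f8, H3f3a and H3f3c), which was not split by tissue. The remaining 5 were H2ac11, H2ac22, H2bc7, H2bc23 and H3c6.

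Replacement histones were split. H3f3b, 1 of the genes for H3.3, had 3 sites in each list, with scores of 16, 16 and 18 in WT and 15, 22 and 14.5 in KO. H3f3a, which also encodes H3.3, had none in bounds of 11046 nt. H2az2 had 1 WT site (47) and 2 KO sites (35 and 12), the first of which overlapped the WT site. The other H2A.Z gene, H2az1, had no WT site and 1 KO site (18). The linker histone genes H1f10 and H1f0 also had KO sites only, 3 for H1f10 (13, 21 and 13) and 1 for H1f0 (29). Of the 14 sites on replacement genes 71.4% were in the KO list, where all sites gave 50.7%. These 14 sites lay on 5 genes, and 3 of each list overlapped a site of the other list. No interval is given for that reason, and the difference was not tested.

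Over all histone genes the genotypes gave nearly equal counts. The KO list held 51.3% of histone gene sites and 49.7% of those on replication-dependent genes, where all sites gave 50.7%. No interval is given for these shares. Most sites overlapped a site of the other list, which draws the share toward equality, and sites of 1 gene are not independent. Of the 54 genes with a site, 32 had the same number in both lists, 12 had more in KO and 10 more in WT. The largest difference was 3 sites, for H1f10, and H4c14, H1f4 and H1f5 differed by 2. Of the WT histone gene sites 86.5% (78 to 92.6) overlapped a KO site on the same strand, where 75.1% of all WT sites did. Of the KO histone gene sites 80.2% (71.1 to 87.5) overlapped a WT site, where 72.9% of all KO sites did. The 13 WT sites without a partner scored from 13 to 19 and the 20 such KO sites from 12 to 29, with medians of 14 and 15.5. The sites with a partner had a median of 29 in each list. The lowest scores of the whole lists were 13 and 12.

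Genes that act on histones and their mRNAs were also compared, beside the 18.2% (WT) and 18.9% (KO) of all protein-coding genes with a site. Of 16 genes of histone mRNA processing and decay, 7 had a WT site and 11 a KO site, with 13 and 22 sites in all. Slbp, which binds the histone stem-loop, had 0 and 1, and Srrt, a partner of the cap-binding complex, had the most (3 and 4), followed by Ncbp1, the large subunit of that complex (2 and 3), Cstf2, a cleavage factor (2 and 2), and Tut4, a terminal uridylyltransferase (1 and 3). A value of 3 sites over both lists was shared by Casp8ap2 (0 and 3), Cpsf2 (2 and 1) and Sympk (2 and 1). Of 21 histone chaperone genes, 16 had a WT site and 16 a KO site, not all of them the same genes, and 17 had a site in either list. They held 75 WT and 67 KO sites. Nasp, a chaperone of H3 and H4, had 13 and 9, Supt16, a subunit of the FACT complex, 12 and 9, and Nap1l1, a nucleosome assembly protein, 9 and 11. Atrx, a chromatin remodeller that works with Daxx, had 5 and 6, and Npm1, a nucleolar chaperone, also had 5 and 6. Of 5 histone variant genes outside the rule, H2ax had 4 and 6 sites, Macroh2a1 5 and 5 and Cenpa 2 and 2, while H2aj and Macroh2a2 had none. Per kb of bounds the chaperone genes held 0.102 WT and 0.0911 KO sites, the processing genes 0.0265 and 0.0448, and the 60 short histone genes 2.74 and 2.74. Bounds of the chaperone and processing genes include introns.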

How the data were processed

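Lin28A irCLIP site lists of Mettl3 WT and KO mES cells were used, 1 per genotype. Each list as deposited by the authors gave the position and strand of every site, its score and its p-value, and the highest p-value was 1.06e-05. Caller, control, threshold and handling of repeated sequence were not stated in the labels. The submitters' processing notes name Bowtie2, UMI-tools, mm10 and hg38. A site was counted for each gene whose RefSeq bounds it overlapped by at least 1 nt on either strand. The bounds hold no exons. Strand and start came from the table of RefSeq starts. Sites of the lists were shared when they overlapped by at least 1 nt on the same strand. Position was planned as site midpoints and copies as protein identity. Coverage along the gene and identical runs in the 300 bases around RefSeq starts were used in their place, chosen after values were seen, as were the 100-nt end windows. Intervals are exact binomial (95%) and treat sites as independent, though several sites can lie on 1 gene. Testis and replacement genes were named from textbook knowledge, and testis genes were marked only within the replication-dependent type. The overlap code was tested on simulated intervals (Python 3.11.15, pandas 2.3.3, scipy 1.17.1). Every member with a site is named, and up to 5 genes of each comparison list. Casp8ap2, Cpsf2 and Sympk share the fifth place of theirs and were named after their values were seen, as was Slbp. The members and lists were chosen with earlier results of these data known. The icSHAPE files pair no transcript with a gene name and were not used here. The gene H3f5 was not analysed here.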

Additional observations from a re-analysis of the deposited data

How the results depend on the processing

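The counts of histone genes and sites were recomputed with the site midpoint inside the bounds, without sites over several genes, on the strand of the gene only, with bounds widened by 100 nt, and with sites at or above the median score of their list. Genes with a site ranged from 40 to 49 in WT and from 45 to 53 in KO, and sites from 64 to 96 and from 70 to 101. Replication-dependent genes with a site ranged from 42 to 49 and replacement genes from 4 to 5. Of 42 recomputed values 39 stayed within 1.5 times the count, or within the counting interval of the share. Widening the bounds changed none of the values. The 64 WT sites at or above the median score lay exactly at the limit of 1.5 times. The share of WT sites overlapping a KO site was 93.75% for sites at or above the median score. When start, end and strand had to be identical, it was 61.5% in WT and 58.4% in KO. Restricting the sites to the strand of the gene left out the 5 members with no known strand. No paired analysis was possible because each genotype had 1 sample. Read depth is unknown, so a missing site does not show that Lin28A was absent.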

Other observations

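Histone pseudogenes were also searched for sites. Of 5 pseudogenes whose symbols meet the same rule, H2ac5-ps, inside the largest block of chromosome 13 (23746105 to 23746514), had 1 site in each list, on the minus strand with scores of 17 in WT and 13 in KO. The other 4 (H2ac14, H3f3a-ps1, H3f3a-ps2 and H1f11-ps) had none. Over all protein-coding genes 21.6% had a site in either list, and the share over all pseudogenes was not computed.

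Between the members of the blocks there were few sites. The largest block spans 233.4 kb, and the site of H2ac5-ps was the only site of each list there outside a member. In the block of chromosome 13 that starts at 21715711, 3 sites of each list lay outside every annotated gene, all on the minus strand and at the same positions in both lists. They started at 21802701 (scores of 30.0 in WT and 23 in KO), 21813501 (19 and 17) and 21817351 (14 and 22). The first lay between H2bc22 and H2bc23, and the other two between H4c17 and H4c18. In the block of chromosome 3, 1 KO site with a score of 13 lay outside every gene, at 96262251, on the minus strand below the bounds of H4c14, whose own 4 sites over both lists were on the minus strand too.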
